A study of Arabidopsis thaliana with 6 samples.

Results

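UGT74E2 (AT1G05680), UGT75B1 (AT1G05560) and CYP81D11 (AT3G28740) were followed in seedlings of Arabidopsis thaliana of the BIC1-YFP line, in which BIC1 is fused to the fluorescent protein YFP, and in the wild type. The 3 genes were chosen by their identifiers because they had been seen to be higher in BIC1-YFP in these same libraries, so their values in that contrast are given as a description, with no test. All 3 are among the 1537 genes of the table, which the authors had limited to genes that passed their own test between BIC1-YFP and the wild type. The study measured RNA by sequencing in whole 10-day-old seedlings grown on plates in long days, in 3 biological replicates of BIC1-YFP and 3 of the wild type (WT), both in the Columbia ecotype. The sources used here give neither the promoter that drives BIC1-YFP nor the number of independent lines. BIC1 is known for blocking cryptochromes, the receptors of blue light, and the study asks about its part in brassinosteroid signalling and growth.

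Both UGT genes encode family 1 glycosyltransferases, enzymes that move a sugar from a nucleotide donor onto a small molecule and so change its solubility, storage or activity. UGT74E2 is known for glucosylating indole-butyric acid, an auxin precursor, and for strong induction by hydrogen peroxide. UGT75B1, also called UGT1, accepts auxin and aminobenzoate, is induced by salicylic acid and was purified with the callose synthase complex of the forming cell plate. CYP81D11 is a cytochrome P450 induced by cis-jasmone and by foreign chemicals, and TGA transcription factors carry the response to such chemicals. It alters the volatiles that a plant gives off to insects. Genes of this kind belong to the detoxification response, in which oxidation, conjugation to glutathione and glucosylation follow each other.

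In the RefSeq annotation of TAIR10.1, all 3 genes lie on the minus strand. UGT74E2 spans chr1:1703002-1704838 in 2 exons, UGT75B1 spans chr1:1645300-1647435 in 1 exon, and CYP81D11 spans chr3:10788698-10790553 in 3 exons. The UGT genes are thus 55566 bases apart. The authors' deposited table describes AT3G28740 as CYP81D1 in its long description, whereas RefSeq names it CYP81D11, the name used here. The sequences just upstream of the annotated starts are shown because the 3 genes are described together. They are the 250 bases upstream of UGT74E2 (chr1:1704839-1705088), the 139 bases between UGT75B1 and its neighbour CALS1 (chr1:1647436-1647574) and the 250 bases upstream of CYP81D11 (chr3:10790554-10790803), each from TAIR10.1 and read on the minus strand, 5′ to 3′. Capitals mark matches to the searched motifs.
UGT74E2: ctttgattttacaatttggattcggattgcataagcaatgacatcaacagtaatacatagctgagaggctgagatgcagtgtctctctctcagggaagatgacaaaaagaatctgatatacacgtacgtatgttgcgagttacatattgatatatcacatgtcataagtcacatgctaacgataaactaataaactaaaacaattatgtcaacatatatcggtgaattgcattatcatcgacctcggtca
UGT75B1: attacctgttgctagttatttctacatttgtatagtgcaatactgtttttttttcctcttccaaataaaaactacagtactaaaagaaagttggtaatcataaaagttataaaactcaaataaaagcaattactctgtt
CYP81D11: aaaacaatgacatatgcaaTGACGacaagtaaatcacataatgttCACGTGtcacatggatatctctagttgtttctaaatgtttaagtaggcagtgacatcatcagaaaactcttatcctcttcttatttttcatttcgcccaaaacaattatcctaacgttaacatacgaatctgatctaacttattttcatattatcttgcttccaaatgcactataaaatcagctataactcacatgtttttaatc

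The motifs searched on both strands were TGACG, the half-site of TGA factors, CACGTG, the G-box, and CGTGTG and CGTGCG, forms of the brassinosteroid response element. Within 250 bases, CYP81D11 held 1 TGACG at 231 to 227 bases and 1 CACGTG at 205 to 200 bases upstream of its start. Of 27443 protein-coding genes, 18.6% held TGACG and 6.49% held CACGTG in a window of that length. Among those that are in the table the shares were 21.0% and 10.0%. UGT74E2 and UGT75B1 held none of the motifs in that window. For UGT75B1 the window was counted from the start of its longer annotated transcript. The bases between that start and the start of its shorter transcript were not searched. Within 1000 bases, UGT74E2 held 1 CACGTG at 441 to 436 bases and UGT75B1 held 1 TGACG at 699 to 695 bases. The latter lies inside the neighbouring gene CALS1. In windows of that length 14.8% of all genes held CACGTG and 54.1% held TGACG, against 20.5% and 56.6% of those in the table. These matches are letters in a window and were not tested as binding sites.

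UGT74E2 was higher in every BIC1-YFP library than in every WT library. Its normalized abundance, in the deposited units, was 320.4, 410.3 and 448 in BIC1-YFP replicates 1 to 3, against 49.2, 44.4 and 94.9 in WT replicates 1 to 3. The means were 393 ± 65.6 in BIC1-YFP and 62.8 ± 27.9 in WT (SD, n = 3 each), a 6.25-fold higher mean. WT replicate 3 stood at 2.03 times the mean of the other WT libraries, and the lowest BIC1-YFP library was still 3.38 times as high as that replicate. In whole seedlings a larger share of expressing cells and more RNA per cell cannot be told apart, here and for the genes below.

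CYP81D11 was likewise higher in every BIC1-YFP library. It stood at 2024, 1686 and 1642 units in BIC1-YFP replicates 1 to 3, against 286, 249 and 441 units in WT replicates 1 to 3. The means were 1784 ± 209 in BIC1-YFP and 325 ± 102 in WT (SD, n = 3 each), 5.48-fold higher in BIC1-YFP. The groups did not overlap, and WT replicate 3 was again the highest WT library.

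UGT75B1 had the smallest difference of the 3 genes. It stood at 3093, 3268 and 3245 units in BIC1-YFP replicates 1 to 3, against 1283, 1414 and 1744 units in WT replicates 1 to 3. The means were 3202 ± 94.8 in BIC1-YFP and 1480.3 ± 237 in WT (SD, n = 3 each), a 2.16-fold higher mean. The BIC1-YFP libraries lay within a coefficient of variation of 2.96%, against 16.0% among the WT libraries. Among all listed genes, 37% likewise had every BIC1-YFP library above every WT library, and nothing is read from the 3 genes meeting that, since this contrast chose them.

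**Figure D1:**
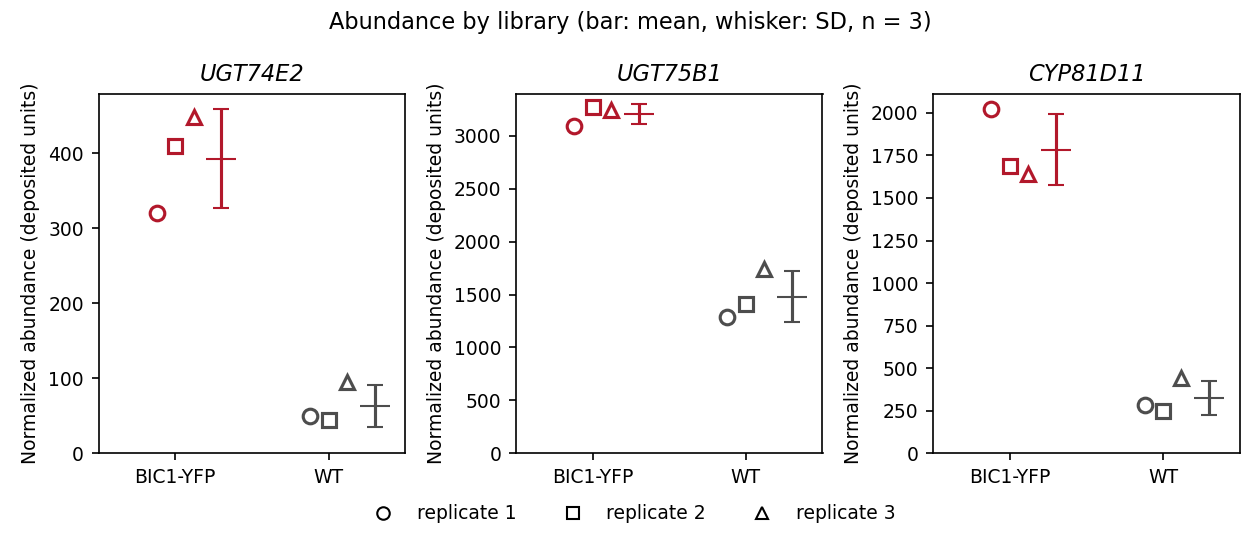
Normalized abundance (y axis, deposited units, linear from 0) of UGT74E2, UGT75B1 and CYP81D11 in the BIC1-YFP and WT libraries (x axis); symbols are replicates, horizontal bars means and whiskers SD (n = 3). In each panel the BIC1-YFP libraries lie above the WT libraries, and WT replicate 3 is the highest WT library.

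On the log2(abundance + 1) scale the difference, BIC1-YFP minus WT, was 2.70 for UGT74E2, 2.49 for CYP81D11 and 1.12 for UGT75B1. By the ratio of means they ranked 48th, 57th and 273rd among the listed genes. WT replicate 3 lay part of the way to the BIC1-YFP mean for all 3, at 33.2% of the log2 distance for UGT74E2, 29.8% for UGT75B1 and 26.5% for CYP81D11. Over the whole table the median was 24.0%, and that library was the highest WT library in 441 of the 804 tested genes with a higher mean in BIC1-YFP (54.9%). Without WT replicate 3 the log2 differences were 3.03 for UGT74E2, 2.73 for CYP81D11 and 1.25 for UGT75B1. The part of that library in the results was otherwise not tested.

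Levels of different genes were compared per kilobase of annotated spliced transcript. This takes the deposited values as not yet divided by length: values under 15 in BIC1-YFP replicate 1 were within 0.05 of a whole number for 100% of the genes there, whatever their length. In BIC1-YFP the order was UGT75B1 at 1940.5 ± 57.4, CYP81D11 at 1117 ± 131 and UGT74E2 at 224 ± 37.4 units per kilobase (SD, n = 3). In WT the order was the same, with 897 ± 144, 204 ± 63.7 and 35.8 ± 15.9 units per kilobase (SD, n = 3) for these genes. The libraries of neighbours in this order did not overlap in either genotype. UGT75B1 was taken with its shorter transcript of 1650 bases; with the longer one of 2136 bases its BIC1-YFP level was 1499 ± 44.4, still first. The ratio of UGT75B1 to CYP81D11 was 1.74 in BIC1-YFP and 4.40 in WT, so the levels of these genes lay closer together in BIC1-YFP, while the ratio of CYP81D11 to UGT74E2 was 4.99 in BIC1-YFP and 5.69 in WT.

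The 3 genes did not vary alike among the BIC1-YFP libraries. UGT74E2 was lowest in replicate 1 and highest in replicate 3, whereas CYP81D11 was highest in replicate 1 and lowest in replicate 3. AT3G52740, listed without a name and taken here from general knowledge as the BIC1 gene, stood at 16272, 14597 and 21868 units in BIC1-YFP replicates 1 to 3, against 409, 351 and 259.8 units in WT replicates 1 to 3. Its BIC1-YFP libraries thus had an order that neither UGT gene nor CYP81D11 followed. An order of 3 libraries carries little, and a link to the level of AT3G52740 was not tested.

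Each of the 3 genes has relatives or neighbours that could share its reads. AT1G05675, annotated as a glycosyltransferase, lies 252 bases from UGT74E2, and 89.5% of the 1362 aligned coding bases are identical between the genes. Of the stretches of 50 coding bases in UGT74E2, 0.838% occur unchanged in AT1G05675, and of those of 100 bases 0 do. UGT75B2 shares 87.5% of 1353 aligned coding bases with UGT75B1, with 2.28% of the stretches of 50 bases unchanged and 0 of those of 100. By comparison, UGT74E2 and UGT75B1 are identical at 62.5% of 1257 aligned coding bases. UGT75B1 also has an annotated antisense RNA, AT1G05562, over its whole span, and the sources used here do not say whether reads were counted by strand, so sense and antisense reads cannot be told apart. CYP81D11 overlaps the end of HMG, a chromatin protein gene on the other strand, by 32 bases. Of the 30 annotated genes that lie within 5 places on either side of the 3 genes, AT1G05675, UGT75B2, AT1G05562, CALS1 and HMG among them, 0 are in the table.

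The pattern nearest to each gene was sought among the other 990 tested genes with a mean of at least 100 units in the higher genotype. The measure was the root mean square difference between profiles over the 6 libraries on the log2(abundance + 1) scale, after each gene's own mean was subtracted. CYP81D11 had the profile nearest to that of UGT74E2, at 0.28, where the median distance was 1.18. In turn UGT74E2 was the second nearest to CYP81D11, after AT4G08555 at 0.27. AT4G08555, which has no description in the table, stood at 676 ± 43.9 units in BIC1-YFP and 163 ± 64.1 in WT (SD, n = 3). AT3G20340, also without a description, and GRP3S, a glycine-rich protein gene, were among the 5 nearest to both. AT1G73120 completed the set for UGT74E2 and the glutathione transferase gene GSTU24 that for CYP81D11. UGT75B1 lay at 0.83 from UGT74E2, in place 60 of the 990 genes by distance, and at 0.71 from CYP81D11, in place 43. Counted from UGT75B1, where the median distance was 0.72, CYP81D11 took place 494 and UGT74E2 place 505.

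The genes nearest to UGT75B1 were AT5G49170, OXS3, GSTU7, AER and AT5G03120, at distances of 0.083 to 0.091. OXS3, named for tolerance of oxidative stress, stood at 1473 ± 95.5 units in BIC1-YFP and 752 ± 125 in WT (SD, n = 3). AER, an alkenal reductase that removes reactive carbonyls, stood at 5389 ± 367 units in BIC1-YFP and 2596 ± 238 in WT (SD, n = 3). GSTU7, a tau-class glutathione transferase, stood at 2118 ± 84.6 units in BIC1-YFP and 1003 ± 73.7 in WT (SD, n = 3). The measure takes in the size of the step between genotypes, and every gene in the table was selected for such a step.

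**Figure D2:**
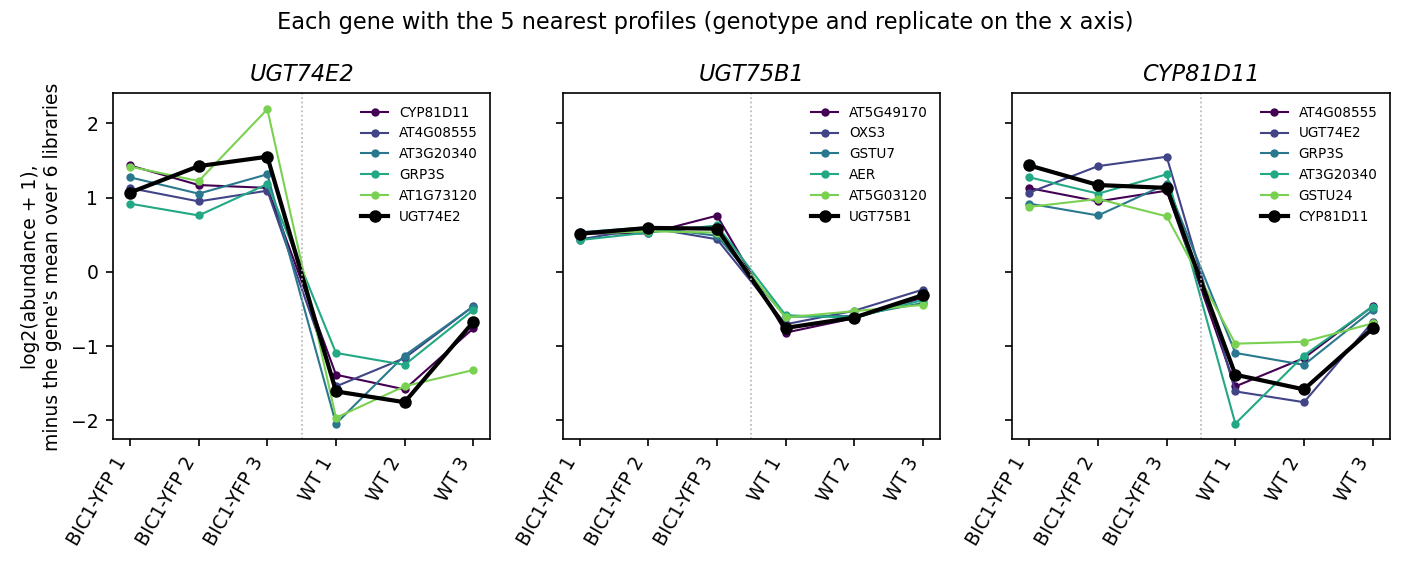
Profiles of UGT74E2, UGT75B1 and CYP81D11 (black) with the 5 nearest genes of each (coloured), as log2(abundance + 1) minus the gene's mean over the 6 libraries (y axis) by genotype and replicate (x axis). The distances to UGT75B1 lie between 0.083 and 0.091; those to UGT74E2 and CYP81D11 are 0.27 and more.

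Genes of xenobiotic and oxylipin detoxification, the response CYP81D11 belongs to, were mostly higher in BIC1-YFP where they were listed. Of 37 genes in that list, 13 are in the table, and 12 rose and 1 fell at a limma adjusted p under 0.05. In the whole table limma called 76.6% of the 1531 tested genes, 37.6% higher and 39.1% lower, so the share called carries little and the direction is what these counts describe. The median log2 fold change of the 13 was 0.81, against 0.56 over all tested genes. The smallest absolute log2 ratio of deposited means in the table is 0.52, with 809 genes higher and 728 lower. A list of mostly higher genes therefore has a median near or above that value by selection. Nothing is read from the medians here or in the lists below. GSTU24, a tau-class glutathione transferase, stood at 1464, 1576 and 1340.0 units in BIC1-YFP replicates 1 to 3, against 407, 415 and 493 in WT replicates 1 to 3. It rose 3.33-fold, with a log2 fold change of 1.74 ± 0.15 (SE) and an adjusted p of 0.0014 by limma. ChlAKR, a chloroplast aldo-keto reductase of reactive carbonyls, averaged 499.7 ± 62.4 units in BIC1-YFP and 158 ± 22.7 in WT (SD, n = 3), and rose by 1.65 ± 0.19 on the log2 scale (SE; adjusted p of 0.0023 by limma).

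Further tau-class genes rose, with GSTU2 3.55-fold, GSTU1 2.49-fold, GSTU7 2.11-fold, GSTU19 2.01-fold and GSTU22 1.60-fold higher in BIC1-YFP. GSTU1, GSTU2 and GSTU7 belong to 1 family of close relatives and may share reads. GSTU19 averaged 27479.6 ± 2027 units in BIC1-YFP and 13669 ± 1172 in WT (SD, n = 3). The oxophytodienoate reductase genes OPR1 and OPR2, the aldo-keto reductase gene AKR4C8, the sulfotransferase gene SOT12 and the stress regulator NAC032 rose between 1.49-fold and 1.73-fold. GSTF6, a phi-class glutathione transferase of the defence response, was the 1 gene of the list that fell, to 1184 ± 127 units in BIC1-YFP, against 3044 ± 787 in WT (SD, n = 3), a log2 fold change of -1.34 ± 0.20 (SE) with a limma adjusted p of 0.0048. By the authors' short descriptions the table holds 12 glutathione transferase genes, of which 6 rose and 5 fell, and 4 of those that fell are outside the list. All 6 that rose are in the list, so the direction within it depends on which genes were put in it. With the p-values adjusted over the 21574 tests or more that lie behind the deposited table, limma called 3.27% of the tested genes, and 4 of the 13 detoxification genes stayed among them. The calls of NAC032, GSTU22 and AKR4C8 were lost without BIC1-YFP replicate 2 or WT replicate 1, and that of SOT12 without BIC1-YFP replicate 2 or 3 or WT replicate 1 or 2 (limma, adjusted p between 0.051 and 0.070). TGA2, TGA5, TGA6 and their partner SCL14, the regulators of this response, are not in the table.

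Of the 8 auxin glucosyltransferase genes looked for, UGT74E2 and UGT75B1 are in the table, and AT1G05675, UGT74D1, UGT75B2, IAGLU, UGT84B1 and UGT84B2 are not. Among 31 other genes of auxin metabolism, 3 are in the table and all 3 rose, with a median log2 fold change of 0.76. Over all tested genes 37.6% were called higher, so little can be read from the direction of 3 genes. NIT2, a nitrilase, averaged 321 ± 48.1 units in BIC1-YFP and 172 ± 23.0 in WT (SD, n = 3) and rose 1.87-fold. AT1G14130, an iron-dependent oxygenase, averaged 294 ± 7.70 units in BIC1-YFP and 173 ± 15.1 in WT (SD, n = 3). CYP79B3, which acts on tryptophan, rose 1.57-fold and no longer passed once BIC1-YFP replicate 2 was left out, with a limma adjusted p of 0.053. None of the 8 GH3 genes of the list, which join auxin to amino acids, is in the table.

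Other family 1 glycosyltransferases of the list split by direction. Of 34 in the list, 10 are in the table, of which 5 rose and 5 fell, with a median log2 fold change of -0.21. Limma called 37.6% of all tested genes higher and 39.1% lower, so little can be read from that split. It also depends on the list: by the authors' short descriptions, 24 other UDP-glycosyltransferase genes are in the table, of which 8 rose and 15 fell. UGT74F2, which glucosylates salicylic acid, stood at 997, 1235 and 1342 units in BIC1-YFP replicates 1 to 3, against 516, 359.8 and 797 in WT replicates 1 to 3, a 2.14-fold rise. UGT76E2, AT2G36780, UGT73B4 and UGT73B2 rose by 0.58 to 1.16 on the log2 scale. Among the genes that fell, UF3GT was 4.36-fold, AT4G14090 3.76-fold and UGT78D2 2.02-fold lower in BIC1-YFP. AT2G22590 was 11.9-fold lower, and UGT78D3 was near 0 in BIC1-YFP at 0.352 ± 0.564 units, against 4.99 ± 0.400 in WT (SD, n = 3). Without BIC1-YFP replicate 2 the list had 1 gene higher, UGT73B4, and 5 lower, with UGT74F2 at a limma adjusted p of 0.056, and without WT replicate 1 or WT replicate 2 it had 3 higher and 5 lower.

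The relatives of CYP81D11 in the table lay in the other direction. Of 16 other CYP81 genes, 3 are listed, all lower in BIC1-YFP, and 2 of these passed. Over all tested genes 39.1% were called lower, so little can be read from the direction of 3 genes. CYP81F2, an enzyme of indole glucosinolate modification, stood at 67.1, 71.3 and 96.9 units in BIC1-YFP replicates 1 to 3, against 142, 193 and 297 in WT replicates 1 to 3, and fell, with a log2 fold change of -1.37 ± 0.31 (SE) and a limma adjusted p of 0.014. CYP81F4, of the same pathway, fell to 1597 ± 187 units in BIC1-YFP, against 2531 ± 449 in WT (SD, n = 3), and that call was lost when BIC1-YFP replicate 2 or 3 or WT replicate 1 or 2 was left out (limma adjusted p of 0.051 to 0.060). CYP91A2, listed as a CYP81F member, averaged 69.8 ± 25.0 units in BIC1-YFP and 110.3 ± 18.8 in WT (SD, n = 3) and did not pass, although it did without BIC1-YFP replicate 1. CYP81F2 in WT replicate 3 was the farthest of the WT libraries from the BIC1-YFP values, the reverse of what CYP81D11 showed there.

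Genes of mitochondrial stress and of the hydrogen peroxide response, in which UGT74E2 is a known target, moved in both directions. Of 16 genes, 5 are in the table, of which 2 rose and 2 fell (median log2 fold change 0.62). With 37.6% of all tested genes called higher and 39.1% lower, little can be read from these directions. AT5G51440, related to small heat shock proteins, stood at 424, 620.5 and 636 units in BIC1-YFP replicates 1 to 3, against 136, 132 and 408 in WT replicates 1 to 3. WT replicate 3 was again high, and the call was lost without BIC1-YFP replicate 2 or 3 or WT replicate 1 or 2 (limma, adjusted p between 0.062 and 0.073). The cytosolic peroxidase gene APX1 rose 1.53-fold, while the catalase gene CAT2 fell 1.52-fold and the dehydrogenase gene NDA1 fell 2.75-fold. Leaving out BIC1-YFP replicate 2 put CAT2 just past the threshold, at a limma adjusted p of 0.0501. The zinc finger gene RHL41, also called ZAT12, averaged 622 ± 385 units in BIC1-YFP and 311 ± 105 in WT (SD, n = 3) and did not pass. AOX1A, the alternative oxidase gene used as a marker of this response, and the regulators ANAC013 and ANAC017 are not in the table.

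**Figure D3:**
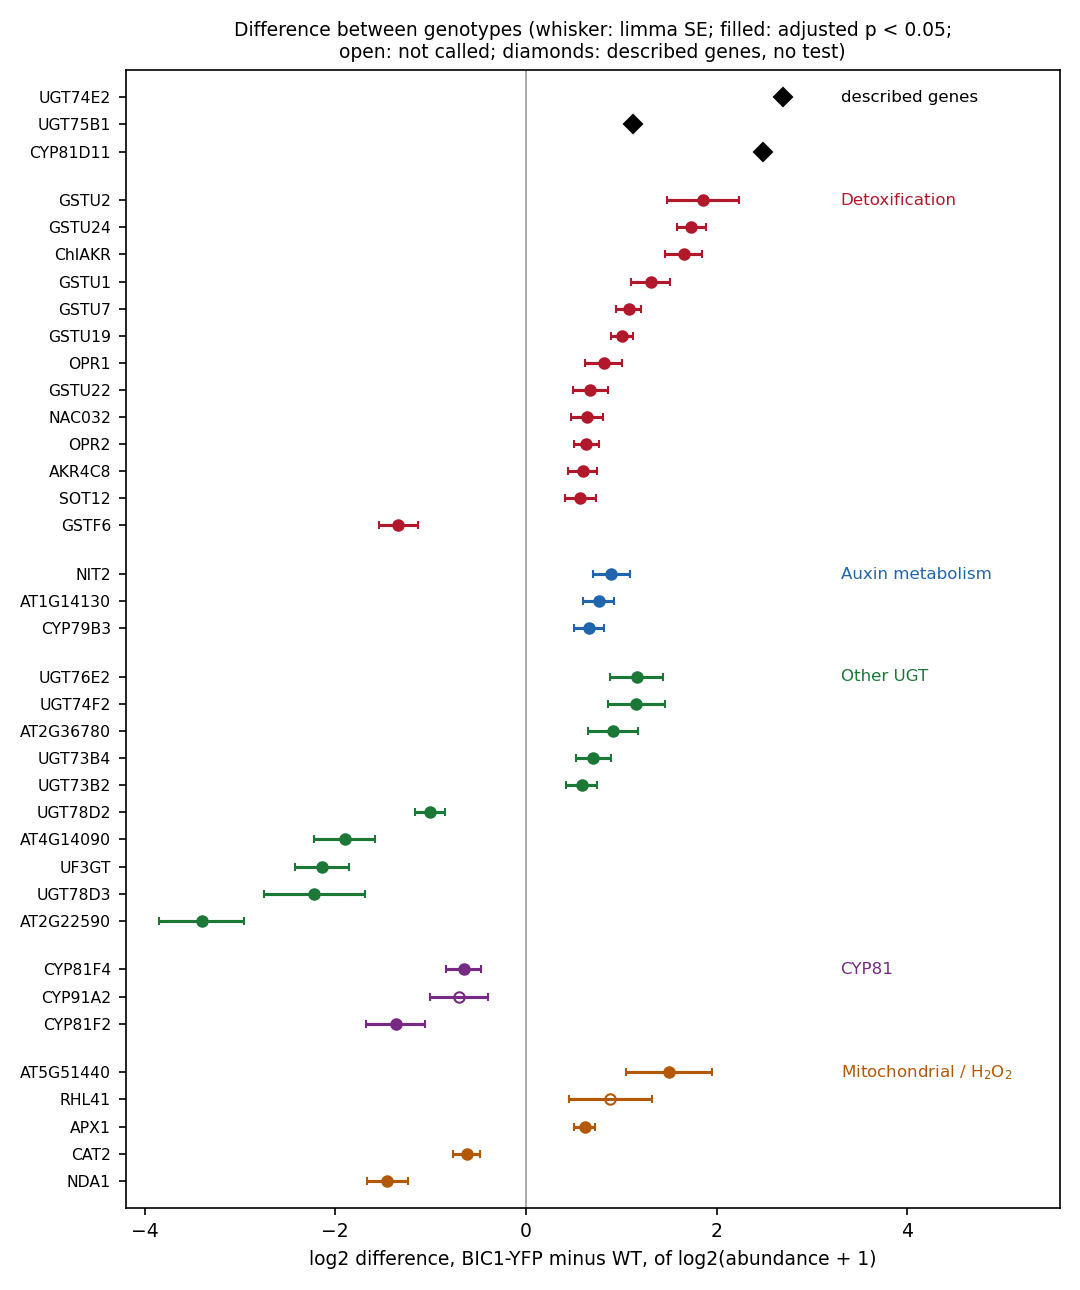
Log2 difference, BIC1-YFP minus WT, of log2(abundance + 1) (x axis) for UGT74E2, UGT75B1 and CYP81D11 (diamonds, no test) and for the listed genes of 5 groups (circles, one gene a row; whiskers are limma's SE; filled circles passed at an adjusted p under 0.05). Of the 13 detoxification genes 12 lie right of 0, whereas the 3 CYP81 relatives lie left of 0. The lists were chosen with earlier results known, and 4 glutathione transferase genes that fell are outside the detoxification list.

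Leaf, root and seed markers were looked at beside these groups, since whole seedlings were used. Of 6 markers, 4 are in the table: the leaf gene CAB1 rose 1.63-fold, the leaf gene RBCS1A fell 1.46-fold, and the root gene PRP3 fell to 143 ± 12.2 units in BIC1-YFP, against 257 ± 65.7 in WT (SD, n = 3). The call of PRP3 was lost when BIC1-YFP replicate 2 or 3 or WT replicate 1 or 2 was left out (limma adjusted p at most 0.063). The seed gene CRA1 averaged 30.4 ± 46.1 units in BIC1-YFP and 3.06 ± 3.48 in WT (SD, n = 3) and did not pass. The part of a change in tissue share in the values above was not tested.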

How the data were processed

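Whole-seedling RNA of 3 BIC1-YFP and 3 WT libraries was compared. The authors deposited 1 table with a normalized signal of read abundance per gene and library, the mean per genotype, and their own log2 fold change with its p-value, raw and adjusted. The submitters' processing notes name TAIR10 and Cufflinks; the sources used here give no aligner, counting, scaling or test. Values under 15 lay within 0.05 of a whole number for 100% in BIC1-YFP replicate 1 and 95.9% in WT replicate 1 but for at most 10.1% elsewhere, so reads could not be recovered, depth is unknown and no count test was used. The largest deposited adjusted p is 0.0499, so the table is a selection; a gene outside it is not shown to be unchanged.

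The planned test assumed counts or FPKM-like values and was used on this signal: genes with at least 1 unit in 3 libraries (1531 of 1537), log2(value + 1), limma 3.58.1 with trend in R 4.3.3, Benjamini-Hochberg over tested genes, threshold 0.05. The adjustment over selected genes is lenient. The procedure was tested on simulated counts in which most genes did not change. The selected genes and normalized values here differ from that setting, so nothing is read from it. The 3 genes, the 7 lists (149 genes) and the tests were chosen with earlier results of these data known. Text names list genes in the table, the 5 nearest profiles and neighbours. Coordinates, symbols and sequences come from RefSeq, TAIR10.1; coding sequences were aligned with Biopython 1.88. Alternatives varied the pseudocount, scaling, filter, variance trend, minimum change, adjustment, replicate block and libraries left out.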

Additional observations from a re-analysis of the deposited data

How the results depend on the processing

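Under 10 alternatives each, the log2 differences of UGT74E2, CYP81D11 and UGT75B1 stayed within 1 SD of the replicates. For the replicate block and the libraries left out this was fixed by the arithmetic, so nothing is read from it there. Without any 1 library the differences of these genes ranged from 2.49 to 3.03, from 2.32 to 2.73 and from 1.03 to 1.25. Leaving out 1 library gave 469 to 1218 calls in place of 1173: 469 without BIC1-YFP replicate 2, 715 without BIC1-YFP replicate 3, 623 without WT replicate 1 and 625 without WT replicate 2. It gave 9 to 13 of 13 in the detoxification list, 6 to 10 of 10 among other glycosyltransferases, 2 to 4 among mitochondrial stress genes, 1 to 3 among the CYP81 genes other than CYP81D11 (1 without BIC1-YFP replicate 2 or 3 or WT replicate 1 or 2), 2 to 3 in the auxin metabolism list and 2 to 3 among tissue markers. With a minimum log2 difference of 1, by construction, 507 genes were called, 7 in the detoxification list, 2 among mitochondrial stress genes, 1 among the other CYP81 genes and 0 in the auxin metabolism and tissue marker lists. An adjustment over at least 21574 tests, the number implied by the deposited adjusted p-values and chosen after seeing the data, left 50 calls (3.27%). Of these, 4 were detoxification genes, and 1 was a glycosyltransferase of the list; the other CYP81 genes, auxin metabolism, mitochondrial stress and tissue markers had 0. Pseudocounts, filters, scaling and trend changed no call of the 38 list genes that they kept. Same-numbered libraries did not all deviate together (r = 0.42, 0.04 and 0.44 for replicates 1, 2 and 3 over genes), so the numbers are not taken as pairs; with the replicate block 1445 genes were called, and 3 more list genes passed, RHL41 (limma adjusted p = 0.0060), CYP91A2 (0.020) and CRA1 (0.040). Not every library correlated best with its own number. Between BIC1-YFP replicate 3 and WT replicate 1 r was -0.43, and between BIC1-YFP replicate 1 and WT replicate 3 it was -0.40. Whether the replicate numbers mark a shared batch was not tested. No list gene reversed. Library depth is unknown, and 3 libraries a genotype limit precision.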

Other observations

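By the authors' short descriptions, 24 other UDP-glycosyltransferase genes are in the table, of which 8 rose and 15 fell in BIC1-YFP by limma. UGT74E2 was the third and UGT75B1 the fifth by ratio of means among all of these. Of 32 other cytochrome P450 genes, 12 rose and 16 fell, and CYP81D11 was the second by ratio. By comparison, limma called 37.6% of all tested genes higher and 39.1% lower. UGT74E2, UGT75B1 and CYP81D11 were chosen by this same contrast, so nothing is read from their ranks.

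The log2 fold changes in the authors' deposited table are smaller than the log2 ratios of its own means for the 3 genes. The authors' deposited table gives 2.05 for UGT74E2, 2.11 for CYP81D11 and 1.03 for UGT75B1, while the log2 ratios of the deposited means are 2.64, 2.45 and 1.11. By the authors' deposited table CYP81D11 thus comes before UGT74E2, and by the ratio of means after it. These genes belong to the 645 whose deposited value is 0.094 to 1.02 times the log2 ratio; for the other 892 it is 1.23 to 1.55 times, with a median of 1.44. That median is near the reciprocal of the natural log of 2, so the log base of the values in the authors' deposited table is not settled for those 892 genes.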
